A study of Mus musculus with 9 samples.

Results

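The Schlafen genes of the mouse were examined in kidney RNA from an interferon-driven model of lupus. The members were taken by symbol from the gene table of each library, and they are Slfn1, Slfn2, Slfn3, Slfn4, Slfn5, Slfn8 and Slfn9, 7 of the 54532 gene identifiers counted. All 7 passed the filter on low counts and were among the 16646 genes tested, so no member is missing from the values given here. The 9 polyA RNA-seq libraries fall into 3 groups of 3 and share the C57BL/6J background. The first group is wild-type mice, which the methods describe as purchased and 4 to 8 weeks old. The second is Trex1-/- mice given vehicle, which the labels call PBS and the methods describe as 1% Tween 80 in PBS. The third is Trex1-/- mice given SN-011, an antagonist of the innate immune adaptor STING, at 10 mg/kg. Both Trex1-/- groups were 1 month old when the daily intraperitoneal injections began, and these lasted 2 weeks. No injection is described for the wild-type mice, so in every comparison with wild type the genotype, the injections and the source of the animals cannot be told apart. TREX1 is an exonuclease that removes DNA from the cytosol, and in its absence the DNA sensor cGAS and its adaptor STING drive the production of type I interferon.

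Schlafen proteins take their name from the German word for sleeping, because the first of them were found as restraints on the growth of thymocytes. They share an N-terminal domain that binds and, in some members, cuts transfer RNA. The mouse members are sorted by length. Slfn1 and Slfn2 are short, Slfn3 and Slfn4 are intermediate, and Slfn5, Slfn8 and Slfn9 are long and carry an added helicase-like domain. Many members are induced by type I interferon and are best known from T cells and myeloid cells. Interferon acts through the receptor IFNAR and the kinases JAK1 and TYK2 on transcription factors such as STAT2 and IRF9, which bind the interferon-stimulated response element in the promoters of their target genes.

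The libraries held 16118813 to 21928965 counts, and 3 counts, the number that a count of 0 allows, correspond to 0.135 to 0.186 CPM, the counts scaled to library size. Log2 CPM of libraries of 1 group had a Pearson's r of 0.966 to 0.993 across genes. The labels do not give sex, and Y-linked transcripts were present at 153 to 188 CPM in 5 of 9 libraries. They were all 3 of Trex1-/- PBS, wild-type replicate 3 and SN-011 replicate 2. The other libraries had at most 0.377 CPM of Y-linked transcripts, below the cut of 10 CPM. A fit with a term for these transcripts is therefore given beside the results. Counts of Trex1 were 0 in every library, wild type included, and 100% of its 1147 annotated exonic bases are shared with Atrip, so these counts cannot check the genotype, which rests on the labels. Nothing in the labels says that libraries came from separate animals, and p-values measure the spread between libraries. The 6 kidney epithelium markers examined (Lrp2, Slc34a1, Umod, Slc12a3, Aqp2 and Nphs1) were present in every group, with summed levels of 1.39e+04 to 1.62e+04 CPM.

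The members lie together on mouse chromosome 11. With the pseudogene Slfn10-ps and Slfn14 they make up a cluster of 9 Schlafen genes over 335.4 kb, chr11:82951349-83286726 (GRCm38, GENCODE vM21). From the lower coordinate, Slfn5 (ENSMUSG00000054404) spans chr11:82951349-82964840 on the plus strand. Slfn9 (ENSMUSG00000069793) at chr11:82978390-82991830 and Slfn8 (ENSMUSG00000035208) at chr11:83002158-83020810 follow on the minus strand. On the plus strand come Slfn2 (ENSMUSG00000072620) at chr11:83065112-83070678, Slfn1 (ENSMUSG00000078763) at chr11:83116849-83122670, Slfn4 (ENSMUSG00000000204) at chr11:83175186-83190216 and Slfn3 (ENSMUSG00000018986) at chr11:83191330-83215154. Some members share sequence with each other and with the pseudogene. Of the 25-base words in the exons of Slfn8, 23.5% were also found in Slfn9 and 23.8% in Slfn10-ps. Slfn9 shared 16.3% with Slfn8 and 18.2% with Slfn10-ps, and of the words of Slfn3, 19.5% were found in Slfn4. At the length of a read the genes were nearly distinct. Windows of 150 bases found in the transcripts of another gene made up 1.46% of Slfn9 (shared with Slfn10-ps), 1.29% of Slfn3 (shared with Gm11427) and 0% of Slfn1, Slfn2, Slfn4 and Slfn8. For Slfn5 they made up 5.46%, because 559 of its exonic bases overlap the antisense gene Slfn5os, and the strand setting of the counting is not given in the sources used here.

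**Figure D1:**
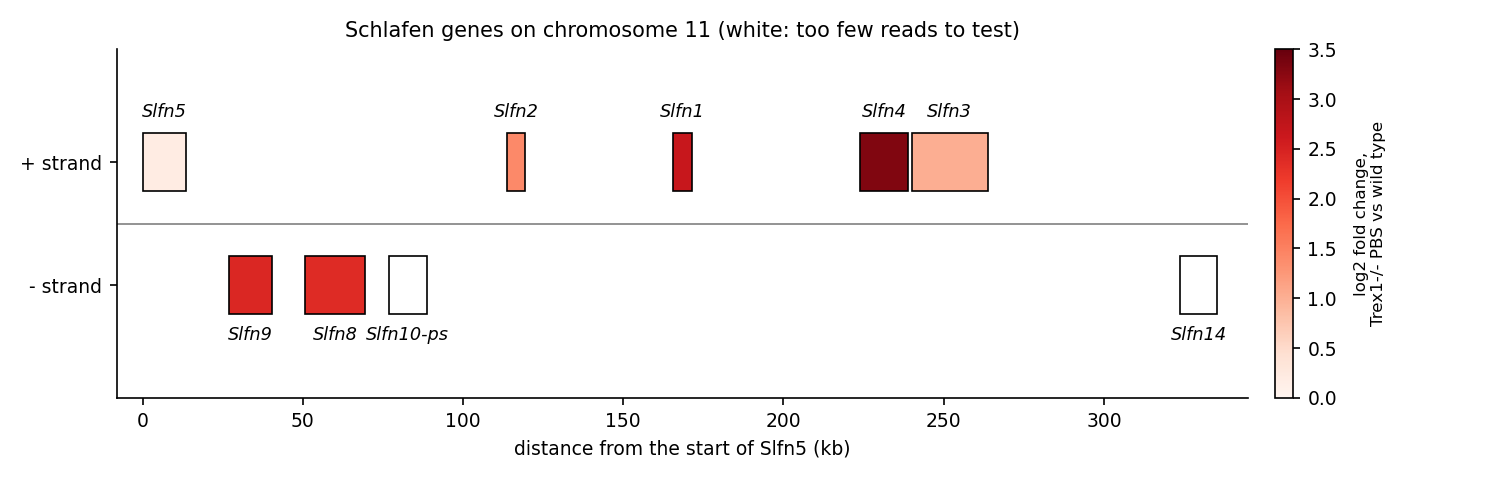
The Schlafen cluster drawn to scale, with each gene as a box at its distance in kb from the start of Slfn5 and on its strand. Colour gives the log2 fold change of Trex1-/- PBS against wild type, from 0.20 for Slfn5 at the left end to 3.32 for Slfn4, and the boxes of Slfn10-ps and Slfn14, which had too few reads to test, are white.

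Promoter sequence was read from RefSeq for GRCm38.p6, in windows of 250 bases before to 50 bases after each annotated start, and all 7 members had a window. The core of the interferon-stimulated response element, GAAANNGAAA on either strand, was found in the windows of 3 members, Slfn5, Slfn8 and Slfn9. It was in 3.44% of all 32851 windows. Counted by gene, 3.99% of genes in the table had it, against 8 of the 9 interferon-stimulated reference genes with a window (Isg15, Ifit1, Ifit3, Oas1a, Rsad2, Irgm1, Gbp2 and Cxcl10, but not Ifi44). The gamma-activated site, TTCNNNGAA, was in 0 of the members' windows and in 8.3% of all windows. Either motif was in 11.3% of all windows, and a window that holds both counts once there. A match describes these letters only, and the absence of a match says only that they are not in the window.

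The 250 bases upstream of Slfn8 and of Slfn9 are shown because these neighbouring members had the same 10 letters, shown in capitals. It stands there as its reverse complement, at bases -45 to -36 before the start of Slfn9. Slfn8 has 2 starts in RefSeq, and it lay at -48 to -39 before the one printed here and at -136 to -127 before the other. Over the 242 aligned bases, 85.1% were identical. The Slfn8 sequence is chr11:83020811-83021060 and the Slfn9 sequence chr11:82991831-82992080, both printed 5′ to 3′ on the minus strand of GRCm38.p6.
Slfn8: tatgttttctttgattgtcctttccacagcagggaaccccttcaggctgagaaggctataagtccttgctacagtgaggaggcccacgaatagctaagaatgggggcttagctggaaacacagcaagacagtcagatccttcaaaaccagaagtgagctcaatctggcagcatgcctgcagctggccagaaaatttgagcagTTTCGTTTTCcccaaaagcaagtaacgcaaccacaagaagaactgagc
Slfn9: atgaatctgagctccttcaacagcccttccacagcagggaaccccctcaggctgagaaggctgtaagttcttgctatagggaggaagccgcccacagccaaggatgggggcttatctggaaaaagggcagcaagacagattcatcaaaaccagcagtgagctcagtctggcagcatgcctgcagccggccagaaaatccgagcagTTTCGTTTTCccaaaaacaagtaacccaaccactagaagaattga
For Slfn5 the motif lay at -155 to -146, in the opposite orientation, and only the 30 bases around it are shown because part of that window is an exon of another Slfn5 transcript. They are chr11:82951937-82951966 on the plus strand.
Slfn5: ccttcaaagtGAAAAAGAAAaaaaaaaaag
The upstream bases of Slfn4 and Slfn2 are shown as members with neither motif that rose in Trex1-/- PBS against wild type. They are chr11:83174936-83175185 and chr11:83064862-83065111, both on the plus strand, with no capitals since nothing matched.
Slfn4: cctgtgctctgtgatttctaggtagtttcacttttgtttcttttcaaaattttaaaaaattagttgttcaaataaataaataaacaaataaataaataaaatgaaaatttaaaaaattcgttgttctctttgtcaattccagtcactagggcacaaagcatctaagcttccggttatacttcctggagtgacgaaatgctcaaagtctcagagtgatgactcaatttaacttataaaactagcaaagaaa
Slfn2: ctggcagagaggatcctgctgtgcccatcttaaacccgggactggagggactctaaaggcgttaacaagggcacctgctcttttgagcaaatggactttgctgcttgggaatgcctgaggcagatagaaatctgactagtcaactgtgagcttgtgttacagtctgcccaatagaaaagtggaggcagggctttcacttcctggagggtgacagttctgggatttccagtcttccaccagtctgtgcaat

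In wild-type kidney the family was carried by 2 of its members. Compared per length, as CPM per kb of exonic bases not shared with another gene, Slfn5 stood at 9.11 ± 1.22 (SD, n = 3) and Slfn2 at 7.02 ± 0.201. Slfn5 is a nuclear protein of the long class, and Slfn2 is known for keeping T cells and monocytes quiescent and for protecting transfer RNA from cleavage. The libraries of these members did not overlap each other or any lower member. Slfn8, Slfn1 and Slfn3 followed at 0.491 ± 0.0147, 0.487 ± 0.227 and 0.48 ± 0.128 CPM per kb, with overlapping libraries. The lowest were Slfn9 at 0.228 ± 0.0886 and Slfn4 at 0.205 ± 0.165 CPM per kb, which also overlapped each other and lay below Slfn3. Slfn4 was counted only 8, 11 and 27 times in the wild-type libraries and Slfn1 9, 24 and 21 times, so their wild-type levels are the least precise of the family.

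The first comparison asks how the family differs between kidneys of Trex1-/- mice given PBS and wild type. Of the 7 members, 5 rose, namely Slfn1, Slfn2, Slfn4, Slfn8 and Slfn9 (edgeR's quasi-likelihood test, adjusted p under 0.05). Over all genes 1.44% were called higher. The increases ran from 2.65-fold for Slfn2 to 9.97-fold for Slfn4. Slfn3 and Slfn5 did not pass the test and 0 members fell. The same 5 members had every Trex1-/- PBS library above every wild-type library, which was so for 13.1% of all genes. The median log2 fold change of the 7 members was 2.39, against 0.0028 for all genes. In whole-kidney RNA, more cells of a type and more RNA per cell cannot be told apart.

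Among the short members, Slfn1, the founding member and a growth regulator of thymocytes, stood at 0.424, 1.08 and 1.21 CPM in wild type and at 5.36, 5.43 and 6.46 CPM in Trex1-/- PBS. Wild-type replicate 1 was the lowest, and the groups were far apart. The log2 fold change was 2.67 (SE 0.35, edgeR adjusted p = 0.00271), a 6.36-fold increase. Slfn2 measured 12.1, 11.5 and 11.5 CPM in wild type and 27.3, 33.6 and 32 CPM in Trex1-/- PBS. Its wild-type libraries lay close together, with an SD of 0.335 CPM. Its log2 fold change of 1.41 (SE 0.14, edgeR adjusted p = 0.000463) was the smallest among the members that rose, and it had the smallest SE of them.

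The intermediate members, neighbours on the chromosome, gave unlike values. Slfn4, which is expressed in myeloid cells, was at 0.377, 0.497 and 1.56 CPM in wild type and at 6.88, 7.65 and 9.01 CPM in Trex1-/- PBS. The lowest library of Trex1-/- PBS was well above the highest of wild type, replicate 3, which was one of the libraries with Y-linked transcripts. The log2 fold change was 3.32 (SE 0.42, edgeR adjusted p = 0.00238), a 9.97-fold increase from a low level. Without wild-type replicate 3 the log2 fold change of Slfn4 was 4.14, and that of SN-011 against wild type 3.76. Slfn3, known from T cells and gut epithelium, was at 1.37, 1.4 and 2.14 CPM in wild type and at 3.59, 4.38 and 1.93 CPM in Trex1-/- PBS. Replicate 3 of Trex1-/- PBS fell within the wild-type range, and the groups overlapped. The log2 fold change of Slfn3 was 1.02 (SE 0.33, edgeR adjusted p = 0.173).

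Of the long members, Slfn8 and Slfn9 belong to the branch that also holds human SLFN11 and SLFN13. Slfn8 was at 1.98, 2.08 and 1.97 CPM in wild type and at 9.44, 12 and 10.4 CPM in Trex1-/- PBS, a log2 fold change of 2.39 (SE 0.22, edgeR adjusted p = 0.000334) and a 5.26-fold increase. Its adjusted p was the smallest of the family. Slfn9 was at 0.99, 1.13 and 1.97 CPM in wild type and at 6.52, 8.82 and 6.65 CPM in Trex1-/- PBS. The groups were separate, and the log2 fold change was 2.44 (SE 0.36, edgeR adjusted p = 0.00611), a 5.43-fold increase. Slfn5, a long member described as a transcriptional repressor, was at 60.6, 49 and 48 CPM in wild type and at 61.8, 65.2 and 53.8 CPM in Trex1-/- PBS. The groups overlapped, and the log2 fold change was 0.20 (SE 0.12, edgeR adjusted p = 0.467). The lowest and highest of its 9 libraries, with SN-011 included, were 48 and 67.5 CPM. Of the members with the response element letters in their window, Slfn8 and Slfn9 were called and Slfn5 was not, and of those without, Slfn1, Slfn2 and Slfn4 were called and Slfn3 was not.

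**Figure D2:**
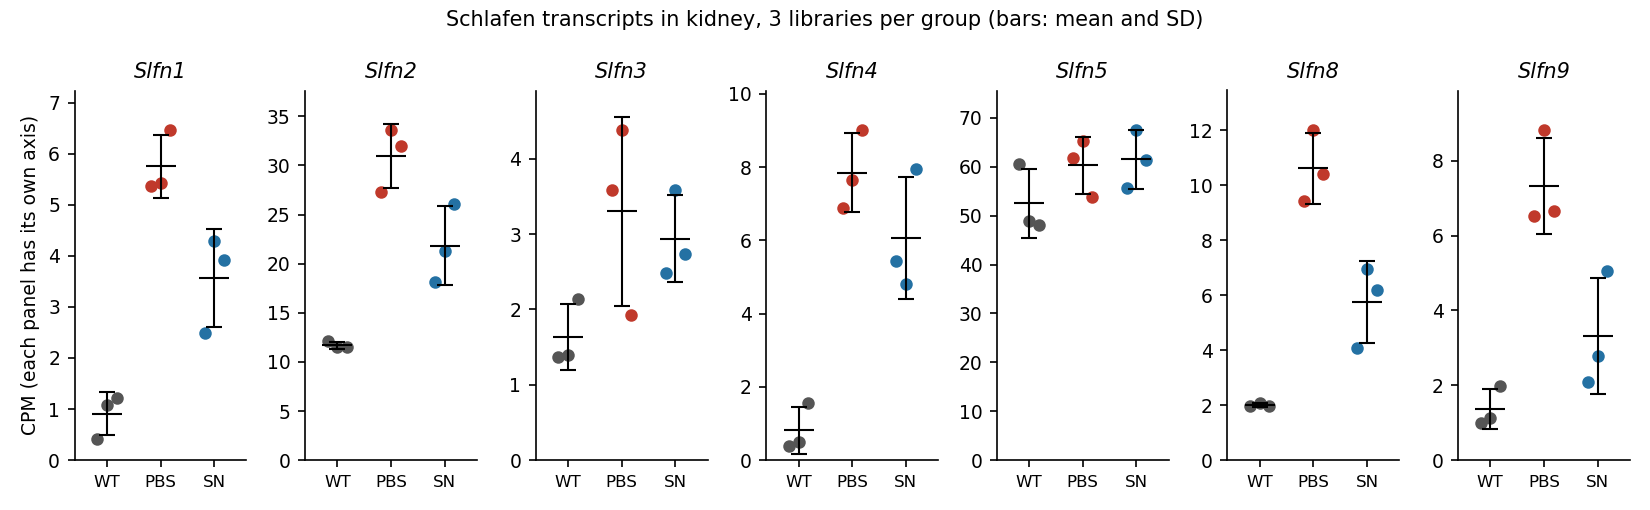
CPM of each member after TMM scaling in every library, with the mean and SD as black bars and a separate vertical axis starting at 0 in each panel. Slfn1, Slfn2, Slfn4, Slfn8 and Slfn9 have all 3 Trex1-/- PBS libraries above all 3 wild-type libraries, and the groups of Slfn5 overlap.

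With a term for the Y-linked transcripts, the 5 calls stayed and the changes of Slfn1 and Slfn4 were smaller, at 2.34 (edgeR adjusted p = 0.0132) and 3.14 (0.00945) on the log2 scale. Slfn9 came to 2.32 (edgeR adjusted p = 0.0283), Slfn8 to 2.23 (0.00233) and Slfn2 to 1.43 (0.00271). Since all 3 Trex1-/- PBS libraries hold these transcripts, that term rests on 1 wild-type library and 1 SN-011 library.

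The second comparison asks how the family differs between Trex1-/- mice given SN-011 and those given PBS. With edgeR's quasi-likelihood test 0 of 7 members passed, as 0% of all genes did in either direction. At an unadjusted p under 0.05, 3 members were lower, Slfn2, Slfn8 and Slfn9, and over all genes 5.68% were lower at that threshold. Members with all SN-011 libraries below all PBS libraries numbered 4 of 7, with Slfn1 in addition to these, against 8.41% of all genes. The median log2 fold change of the members was -0.51, and of all genes -0.0053. DESeq2's Wald test and edgeR's exact test each called 1 member, Slfn8, among 183 and 127 genes in all.

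Slfn9 had the largest difference, with 2.1, 2.78 and 5.05 CPM under SN-011 beside the 6.52 to 8.82 CPM of the PBS libraries. The mean was 0.451 times that of PBS, a log2 fold change of -1.15 (SE 0.34, edgeR adjusted p = 0.278). The lowest SN-011 library was just above the highest of wild type at 1.97 CPM, and the highest was below every PBS library. Slfn8 measured 4.08, 6.96 and 6.17 CPM under SN-011, between the 1.97 to 2.08 CPM of wild type and the 9.44 to 12 CPM of PBS. Its log2 fold change was -0.89 (SE 0.20, edgeR adjusted p = 0.212). DESeq2 gave an adjusted p of 0.0198 for it.

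The short members had smaller differences. Slfn1 was at 2.49, 4.29 and 3.92 CPM under SN-011, a log2 fold change of -0.69 (SE 0.31, edgeR adjusted p = 0.437). Slfn2 was at 18.1, 21.3 and 26.1 CPM, a log2 fold change of -0.51 (SE 0.14, edgeR adjusted p = 0.25). For both, all SN-011 libraries lay between the ranges of wild type and PBS. Slfn4 was at 5.44, 4.81 and 7.95 CPM, and the highest of these was within the PBS range. The log2 fold change of Slfn4 was -0.37 (SE 0.35, edgeR adjusted p = 0.73). Slfn3, at 2.49, 3.59 and 2.73 CPM, and Slfn5, at 55.6, 67.5 and 61.4 CPM, overlapped PBS, with log2 fold changes of -0.17 (SE 0.32) and 0.03 (SE 0.12). The signs of these last differences changed under alternative settings. With the term for Y-linked transcripts, Slfn8 was at -0.73, Slfn1 at -0.36 and Slfn4 at -0.14 on the log2 scale, and again 0 members passed. SN-011 replicate 1 was the lowest of its group in every member except Slfn4.

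The third comparison sets the SN-011 kidneys against wild type. It shares its libraries with the other 2 comparisons, so its values are given beside theirs and not as separate support. Called higher were 4 of 7 members, Slfn1, Slfn2, Slfn4 and Slfn8, against 0.823% of all genes. Members with every SN-011 library above every wild-type library numbered 6, all but Slfn5, against 11.8% of all genes. Slfn4 remained furthest from wild type, at a log2 fold change of 2.95 (SE 0.43, edgeR adjusted p = 0.0119), where PBS against wild type gave 3.32. Slfn1 was at 1.98 (SE 0.35, edgeR adjusted p = 0.0287), Slfn8 at 1.51 (SE 0.22, 0.0119) and Slfn2 at 0.90 (SE 0.14, 0.0176). These are 3.94-fold, 2.85-fold and 1.86-fold higher levels than in wild type.

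Slfn9 did not pass against wild type under SN-011, with a log2 fold change of 1.29 (SE 0.37, edgeR adjusted p = 0.114), and neither did Slfn3 at 0.85 (SE 0.33, 0.217) or Slfn5 at 0.23 (SE 0.12, 0.346). The median log2 fold change of the members was 1.29, and that of all genes -0.0034. These calls depended on the fit. With only the 6 libraries compared, or without wild-type replicate 1 or replicate 2, 0 members were called, and DESeq2 called 5, Slfn9 included.

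**Figure D3:**
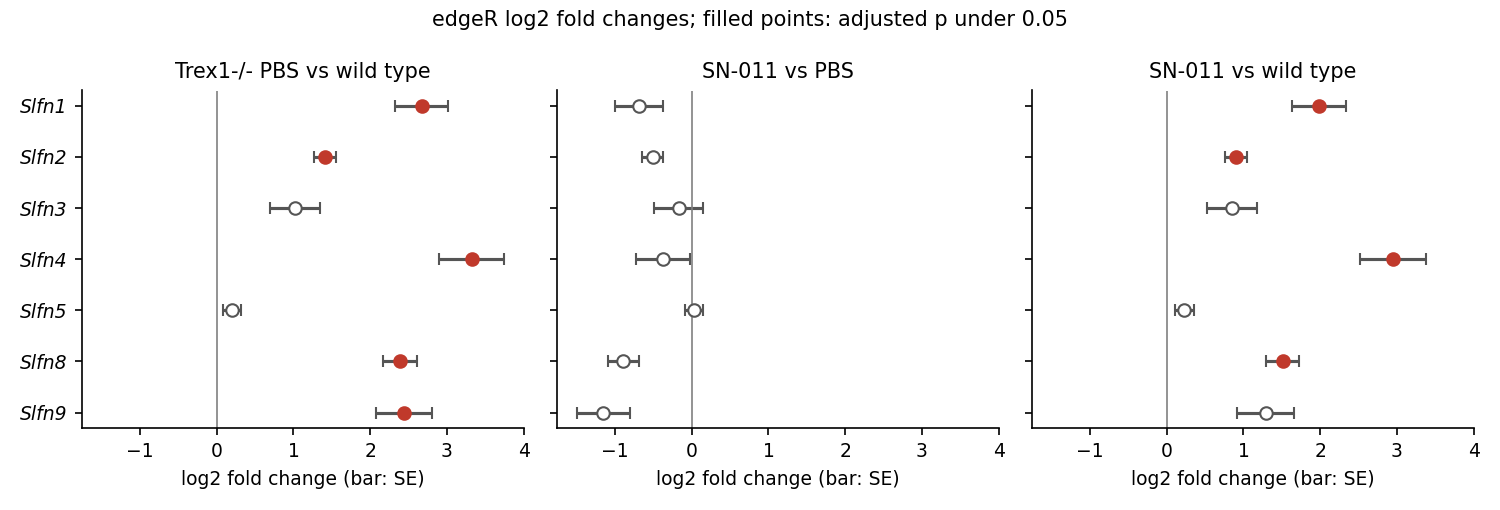
Log2 fold changes from edgeR's quasi-likelihood fit with their SE for the 7 members, in 3 panels for the 3 comparisons, filled where the adjusted p was under 0.05. There are 5 filled points for PBS against wild type, 0 for SN-011 against PBS and 4 for SN-011 against wild type.

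Summed over the 7 members, the level was 18 ± 1 CPM per kb in wild type, 38.9 ± 2.95 in Trex1-/- PBS and 30 ± 4.26 under SN-011 (SD, n = 3 each). Slfn5 and Slfn2 held most of it in every group, with different shares. Slfn5 held 50.4 ± 4.09% of it in wild type, 26.9 ± 2.71% in Trex1-/- PBS and 35.8 ± 3.54% under SN-011. Slfn2 held 39 ± 1.08%, 47.8 ± 2.33% and 43.5 ± 2.9%. In Trex1-/- PBS Slfn2 was therefore first, at 18.6 ± 1.98 CPM per kb, and Slfn5 second at 10.4 ± 1.02, with separate libraries. Under SN-011 Slfn2 (13.1 ± 2.41) and Slfn5 (10.7 ± 1.03) overlapped. That overlap depended on the length used. Over all exonic bases of Slfn5, its mean under SN-011 was 9.72 CPM per kb and its libraries lay below those of Slfn2. Next in both Trex1-/- groups came Slfn1, at 3.09 ± 0.332 CPM per kb with PBS and 1.91 ± 0.509 with SN-011, overlapping Slfn8 in the former and Slfn4 in the latter. Slfn4, last in wild type, held rank 5 in Trex1-/- PBS at 1.98 ± 0.272 CPM per kb, below Slfn8 at 2.59 ± 0.313 and above Slfn9 at 1.23 ± 0.216 without overlap. Slfn3, at 0.967 ± 0.367 CPM per kb, was last there and overlapped Slfn9.

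**Figure D4:**
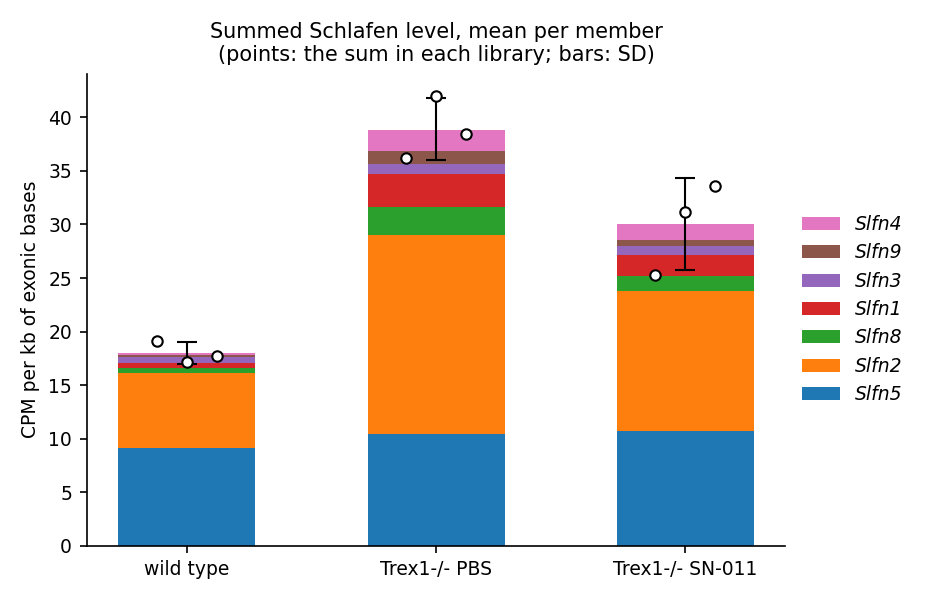
Mean level of each member in CPM per kb of exonic bases, stacked for the 3 groups, with the sum in each of the 3 libraries as points and its SD as a bar. The Slfn5 layer has a similar height in the 3 groups (9.11, 10.4 and 10.7), while the Slfn2 layer goes from 7.02 in wild type to 18.6 in Trex1-/- PBS and 13.1 under SN-011.

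The other genes named Schlafen were hardly read in kidney. Slfn10-ps, the pseudogene between Slfn8 and Slfn2, had 0 to 4 counts per library, Slfn14, known from platelets and reticulocytes, had 0 to 2, and the Schlafen-like gene Slfnl1 on chromosome 4 had 0 to 5. None of these 3 genes passed the filter on low counts. Their summed level was at most 0.356 CPM in any library.

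Over the 9 libraries, the log2 CPM of members varied together to different degrees. These r values describe 9 libraries in 3 groups and carry no test, since any genes that differ between the groups vary together. Slfn2 and Slfn8 were the most alike pair (r = 0.985), and Slfn1 and Slfn5 the least (r = 0.428). Among all pairs without Slfn3 and Slfn5, r ran from 0.892 for Slfn4 with Slfn8 upwards. Of 14835 other genes with a mean of at least 1 CPM, the most alike to Slfn8 were Cxcl10 (r = 0.996), an interferon-induced chemokine, Gm12250 (0.993) and Ifih1 (0.992), the RNA sensor MDA5. For Slfn2 they were Ifit1 (0.992), Trim30a (0.992) and Usp18 (0.987). Those of Slfn9 were H2-Q4 (0.991), Tap1 (0.987), a peptide transporter of antigen presentation, and Rsad2 (0.982). Slfn1 was most like Ubd (0.992), Ly6c2 (0.987), a surface protein of inflammatory monocytes, and H2-D1 (0.982), and Slfn4 most like Gbp8 (0.976), the immunoglobulin gene Ighg2b (0.975) and Irgm1 (0.974). Slfn3, with Gm26648 (0.967), Xpo4 (0.947) and Rsrc1 (0.941), and Slfn5, with Kif23 (0.954), Ankrd44 (0.945) and Wasf2 (0.941), had other genes at the head of their lists.

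The interferon pathway was described from gene lists, which were chosen with earlier results of these data known. Of 10 interferon-stimulated reference genes, 10 rose in Trex1-/- PBS against wild type, where 1.44% of all genes did. Their median log2 fold change was 2.59, beside the 2.39 of the Schlafen members. In SN-011 against PBS, 0 of 10 passed edgeR's quasi-likelihood test and the median was -0.82. DESeq2's Wald test called 7 of these 10 lower, edgeR's exact test 6, the quasi-likelihood test with no filter beyond 1 read 8, and without SN-011 replicate 2 it called 5. In SN-011 against wild type 8 rose. Among 15 genes of interferon signalling, 5 rose in Trex1-/- PBS, and the median of the list was 0.18. They were Irf7 at 3.08 on the log2 scale, Usp18 at 2.78, Stat2 at 1.44, Irf1 at 0.87 and Irf9 at 0.86. With the term for Y-linked transcripts 4 passed, and Irf1 did not (0.77, edgeR adjusted p = 0.0501), and over all settings run the count was 4 to 6. The receptor chains were near 0, Ifnar1 at -0.10 (edgeR adjusted p = 0.672) and Ifnar2 at 0.027 (0.938). Of 7 genes of DNA sensing 2 rose, Zbp1 at 2.71 and Ifi204 at 1.87, and Sting1, the target of SN-011, was at 0.24 (edgeR adjusted p = 0.676).

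Of 5 genes that cut transfer RNA or protect it from cutting (Ang, Rnh1, Nsun2, Trdmt1 and Elac2), 0 passed in any of the 3 comparisons by edgeR's quasi-likelihood test or under any alternative run, 0 had an unadjusted p under 0.05, and their median log2 fold change in Trex1-/- PBS against wild type was -0.063. Their log2 fold changes in that comparison ran from -0.10 to 0.12.

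Summed leukocyte, T cell and macrophage and monocyte markers were higher in Trex1-/- PBS than in wild type, and summed B cell markers were not. The summed level of 4 markers of all leukocytes (Ptprc, Cd48, Coro1a and Laptm5) was 42.9 to 56.1 CPM in wild type, 82.3 to 96.2 in Trex1-/- PBS and 47.9 to 77.1 under SN-011. Of these 4, Coro1a rose in Trex1-/- PBS, at 0.94 on the log2 scale, and Ptprc was at 0.91 (edgeR adjusted p = 0.0557). All 4 were called by DESeq2's Wald test, by edgeR's exact test, with only the 6 libraries compared and with no filter beyond 1 read. Of 7 T cell markers, 2 rose (Cd3g at 1.90 and Cd4 at 1.61), 4 to 5 under those other settings, and the sums were 7.87 to 11.7, 19.4 to 32.3 and 9.92 to 22.3 CPM in the same order of groups. Of 9 macrophage and monocyte markers, 3 rose (Ly6c2 at 2.76, C1qa at 0.94 and C1qb at 0.79), 5 under those settings, with sums of 162 to 191, 266 to 294 and 151 to 241 CPM. Without wild-type replicate 1 or 2, or without PBS replicate 1, 2 or 3, 0 leukocyte and 0 T cell markers were called. The counts were also 0 with a mean of at least 50 counts. That filter left only 3 of 7 T cell markers to test, without Cd3g and Cd4, so it cannot show a loss of their calls. With upper-quartile factors 0 leukocyte markers were called. Without wild-type replicate 1 or 2, or PBS replicate 1 or 3, 1 macrophage and monocyte marker was called. With the term for Y-linked transcripts, 0 of 4 leukocyte, 0 of 7 T cell and 1 of 9 macrophage and monocyte markers passed. The log2 fold changes were then 0.80 for Coro1a, 1.64 for Cd3g and 1.41 for Cd4, and 2.51 for Ly6c2, which kept its call (edgeR adjusted p = 0.0148).

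Markers of other cell types gave no call in Trex1-/- PBS against wild type by edgeR's quasi-likelihood test. Of the B cell and NK cell lists, 2 of 4 genes each could be tested. In wild type, Trex1-/- PBS and SN-011, the B cell sums were 1.93 to 3.52, 1.28 to 2.18 and 0.85 to 2.2 CPM, and the NK cell sums 1.99 to 2.95, 4.2 to 6.71 and 1.47 to 4.21 CPM. Neutrophil markers came to 0.587 to 3.93 CPM in wild type, 2.57 to 7.06 in Trex1-/- PBS and 3.51 to 8.61 under SN-011, and the defining Ly6g was at 0 in every wild-type and PBS library. The 3 neutrophil markers tested had log2 fold changes of 1.06 to 1.98. A single neutrophil marker was called by DESeq2's Wald test, and 1 when every gene with at least 1 read was kept, and the fit of only 6 libraries called 1 NK cell marker. None of 4 endothelial markers passed, and kidney epithelium markers had a median log2 fold change of -0.21 with 0 of 6 called.

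Each member was also set against the summed level of the 4 leukocyte markers in the same library. That ratio does not cover single cell types such as monocytes. Among the macrophage and monocyte markers, Ly6c2 was highest at 2.76, Ccr2 was at 0.42 (edgeR adjusted p = 0.521), and the list median was 0.87. The ratio of Slfn8 to the leukocyte sum was 0.0351 to 0.0484 in wild type and 0.108 to 0.144 in Trex1-/- PBS. For Slfn4 it was 0.0086 to 0.0278 and 0.0836 to 0.0937, and for Slfn2 0.205 to 0.275 and 0.331 to 0.406. Slfn1 (0.00968 to 0.0253, then 0.0651 to 0.0672) and Slfn9 (0.0226 to 0.0351, then 0.0691 to 0.106) also had separate groups. The ratio of Slfn5 went the other way, from 0.855 to 1.38 in wild type to 0.559 to 0.786, and that of Slfn3 overlapped (0.0312 to 0.0381, then 0.02 to 0.0529). Under SN-011 the ratio of Slfn8 was 0.0823 to 0.0902, that of Slfn9 0.0361 to 0.0673 and that of Slfn1 0.0521 to 0.0556, all below the PBS libraries, while those of Slfn2, Slfn3 and Slfn4 overlapped PBS and that of Slfn5, at 0.819 to 1.16, was above it. The part of cell composition in the members' changes was not tested.

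**Figure D5:**
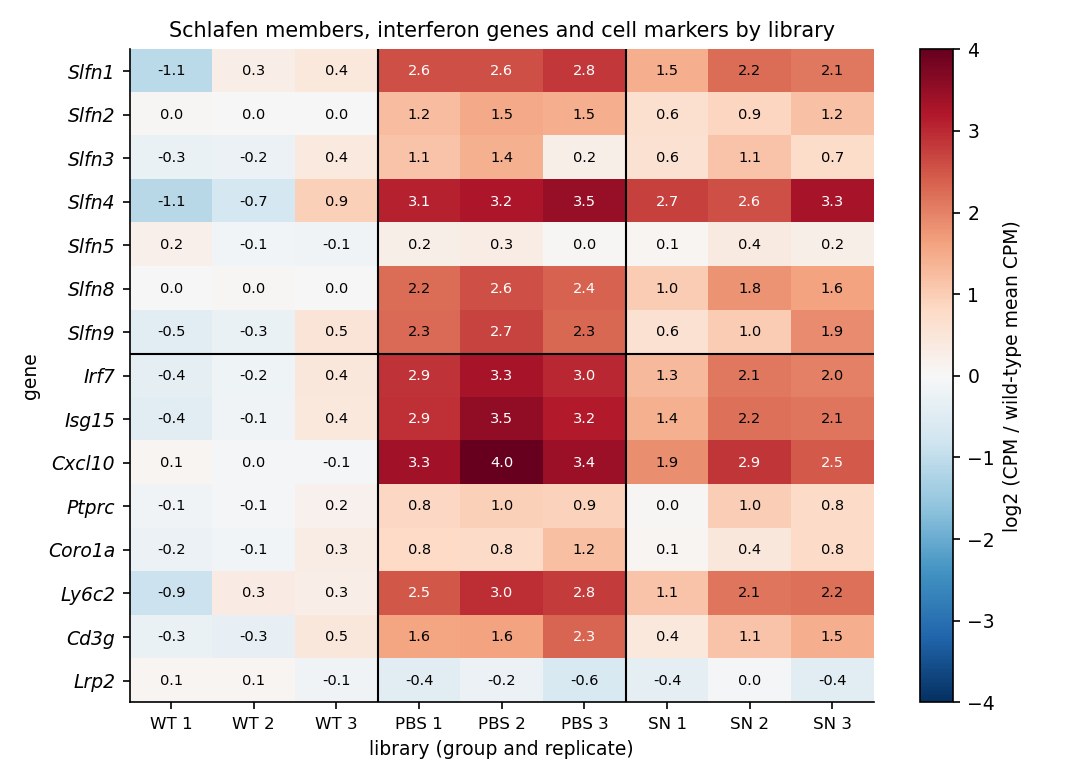
Log2 ratio of CPM to the wild-type mean in each of the 9 libraries, for the 7 members above the line and, below it, 3 interferon-induced genes (Irf7, Isg15, Cxcl10), 4 immune cell markers (Ptprc, Coro1a, Ly6c2, Cd3g) and the kidney epithelium gene Lrp2. Slfn8 was at 2.23 to 2.58 with PBS and 1.02 to 1.79 under SN-011, where Ptprc was at 0.82 to 0.95 and 0.04 to 0.99 and Ly6c2 at 2.49 to 2.96 and 1.13 to 2.21.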

How the data were processed

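PolyA RNA of mouse kidney was sequenced in 9 libraries, as strand-specific pairs of 150-base reads. The authors trimmed the reads with Trimmomatic, aligned them to mm10 with hisat2 and counted uniquely mapped pairs per Ensembl gene with featureCounts, and the deposited values are raw counts. Tool versions, the annotation and the strand setting are not given in the sources used here. Reads that fit several genes are not counted, which can lower members with shared sequence, and the size of this was not tested. GENCODE vM21 (GRCm38) gave a symbol to 54495 of 54532 identifiers, and 37 had none.

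The Schlafen members and all gene lists were chosen with earlier results of these data known. Groups come from the sample labels. The test was that of edgeR 4.0.16 (R 4.3.3). After filterByExpr (minimum count 10, minimum total 15) and TMM scaling, all 9 libraries entered 1 quasi-likelihood model, in which every group has its own mean. The Benjamini-Hochberg adjustment ran over all 16646 genes, and a call needs an adjusted p under 0.05. Standard errors were derived from the F statistic. Levels between genes are CPM per kb of exonic bases that no other gene shares.

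The genes named are the members, for each member the 3 genes with the highest r of log2 CPM (prior count 2), list genes that were called or define a cell type, and tested genes among the nearest 3 on each side of the cluster. A few genes of these lists are not reported here and were left out of the counts and sums. List genes near 0 (Ifnar1, Ifnar2, Sting1) and the tRNA list were named in addition, after their values were seen. Alternatives were DESeq2 1.42.0 size factors or Wald test, upper-quartile factors, other filters, edgeR's exact test, limma-voom (limma 3.58.1), a replicate block, a fit of only 6 libraries, the Y-linked term and each library left out. The steps were tested on simulated counts. Figures were drawn with matplotlib 3.10.9.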

Additional observations from a re-analysis of the deposited data

How the results depend on the processing

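The 21 member results (7 members, 3 comparisons) gave 396 values under 19 alternative settings, of which 370 kept direction and side of the threshold, 16 lost a call, 6 gained one and 4 changed sign. In Trex1-/- PBS against wild type, 5 members were called under every setting. In SN-011 against PBS, where 0 were called, 1 (Slfn8) was called by DESeq2's Wald test and by edgeR's exact test, and without single libraries the count was 0 to 1, the 1 coming without SN-011 replicate 2, when 519 genes in all were called. In SN-011 against wild type, with 4 called, 0 were called with only the 6 libraries compared, and 0 to 4 without single libraries, with 0 without wild-type replicate 1 or 2. Fewer libraries enter these fits. In SN-011 against PBS, Slfn3 turned to 0.17 on the log2 scale with the Y-linked term and ran from -0.43 to 0.10 without single libraries, positive without PBS replicate 2. Slfn5 ran from -0.047 to 0.10, negative without PBS replicate 3 (-0.041) and without SN-011 replicate 2. The cause was not tested. A mean of at least 50 counts removed Slfn3. Deviations from the group means had an r over 0.1 in 5 of 9 pairs of the same number (-0.294 to 0.242) and in 3 of 18 pairs of different numbers (-0.368 to 0.38). Since this did not hold in every pair, the numbers were not taken to pair the libraries. With a replicate block, 5, 0 and 4 members were called in the 3 comparisons, as without it. Low wild-type counts of Slfn1 and Slfn4 limit the precision of their fold changes.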

Other observations

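The genes that flank the Schlafen cluster were read as well. Among the nearest tested protein-coding genes were Unc45b, Nle1 and Rad51d before it and Ap2b1 and Rasl10b after it. By edgeR's quasi-likelihood test 0 of these 5 were called in any of the 3 comparisons. Unc45b, 7.95 kb before Slfn5, had a log2 fold change of -0.58 (SE 0.13, edgeR adjusted p = 0.0555) in Trex1-/- PBS against wild type, opposite in sign to the members. Ap2b1, an adaptor subunit of clathrin coats 12.3 kb past Slfn14, was at 0.0064 (SE 0.076, edgeR adjusted p = 0.978).

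Within the cluster itself, Slfn5 at one end, with a log2 fold change of 0.20, lies next to Slfn9 with 2.44, and Slfn3, at 1.02, next to Slfn4 with 3.32. These pairs of neighbours thus had differences of unlike size in the same libraries, while the neighbours Slfn9 and Slfn8 were alike, at 2.44 and 2.39. Whether these differences differ from each other was not tested.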
